A study of Mus musculus with 35 samples.

Results

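Enteric glial cultures grown on laminin were compared with cultures grown on poly-L-ornithine after both had been exposed to interleukin-1β (IL-1β). The comparison takes the 10 libraries whose labels give these coatings and this treatment, 5 on laminin and 5 on poly-L-ornithine, out of 35 libraries in the series. All 10 came from primary enteric glia of the small intestine of wild-type mice on a BL6 background. Cells were grown as free-floating neurospheres in proliferation medium for 7 days, differentiated on the coating for 3 days per the labels, while the study's methods place the 24 h of IL-1β (10 ng/ml) on day 5. The sex and age of the mice are not given in the labels, and replicates are labelled as biological. Naive cultures without IL-1β on both coatings, and IL-1β-treated cultures on Matrigel, a basement membrane extract rich in laminin, are used only as a reference, with 5 libraries each. Cultures of this kind start from the digested muscle layer and can hold smooth muscle cells, fibroblasts and neurons beside glia. In bulk RNA, fewer cells of a type and less RNA per cell cannot be told apart.

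Laminin is a protein of the basement membrane that surrounds enteric ganglia, and cells bind it through integrins and dystroglycan, which link the matrix to the actin cytoskeleton. Poly-L-ornithine is a synthetic, positively charged polymer that holds cells by charge and offers no integrin ligand of its own. IL-1β acts through the receptor IL1R1 on glia, activates NF-κB, and turns on cytokines and chemokines. The comparison asks whether expression in such mixed glial cultures differs between the substrates in this inflamed state.

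QuantSeq libraries read the 3′ end of polyadenylated transcripts, and all values here are normalized counts, that is, estimated read counts divided by a size factor per library. The laminin libraries held 8334630 to 9185840 normalized counts and the poly-L-ornithine libraries 8555980 to 8997920. Judged by the step between their lowest values, they rested on 7.90 to 10.98 M and 8.19 to 9.71 M reads. The 10 most abundant genes took 16.8% to 21.1% and 17.0% to 22.4% of the total. Genes above 15 normalized counts numbered 11972 to 12418 on laminin and 12141 to 12464 on poly-L-ornithine. Every library held Sox10, which encodes a transcription factor of enteric glia, at 4159 to 9583 normalized counts, and the lymphocyte and epithelial marker lists summed to at most 55.4 and 21.1. Macrophage markers summed to 460 to 1411 on laminin and 292 to 1675 on poly-L-ornithine. Mesothelial markers varied more, from 13.7 to 2113 and from 113 to 2057.

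Few genes passed the test. Of 20687 genes tested by limma, 11 had an adjusted p under 0.05, a share of 0.0532%. On laminin, 8 were higher (0.0387%) and 3 were lower (0.0145%). Before adjustment, 1441 genes (6.97%) had a p under 0.05, 732 higher (3.54%) and 709 lower (3.43%). The higher genes were Fdps, Crim1, Adm, Cnn2, Tuba1a, Tuba1b, Hacd4 and Slc24a3, and the lower genes were Tbx5, Focad and Ctsk. The count moved with single libraries: it was 5 without poly-L-ornithine replicate 3, and 19 without laminin replicate 3. It was 26 when only the 10 libraries were fitted, and 105 when libraries were also matched by the rank of their serial number within each group. The labels do not say what that rank marks. Under this last fit, 79 genes were higher and 26 lower on laminin, and all 11 genes above were among them.

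**Figure D1:**
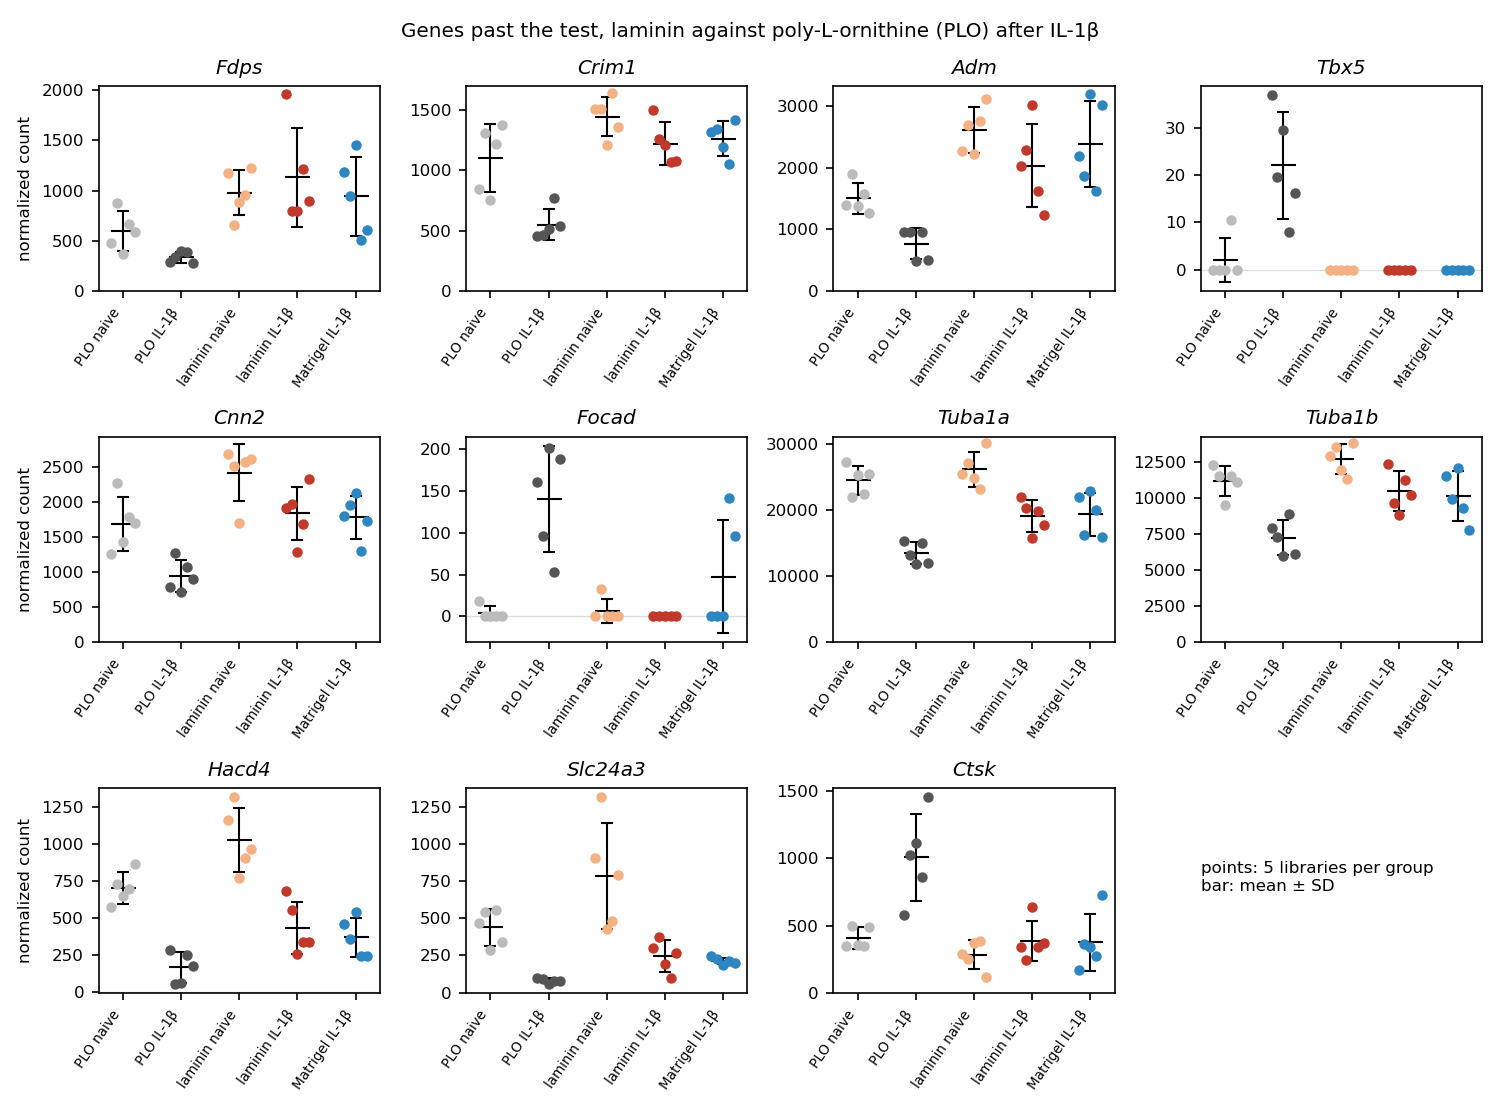
Normalized counts (y axis, linear) of the 11 genes past the test, in 5 libraries per group, for naive and IL-1β-treated cultures on poly-L-ornithine (PLO) and laminin and for IL-1β-treated cultures on Matrigel. Horizontal and vertical bars give the mean ± SD. For Crim1, all 5 laminin IL-1β libraries (1065 to 1500) lie above all 5 PLO IL-1β libraries (455 to 773).

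Genes of cholesterol synthesis lay higher on laminin as a list, with 1 call. In this pathway acetyl-CoA is built into mevalonate, then into isoprenoids and finally into sterol. Its genes are driven together by the factor SREBP2, which is released when membrane sterol is low, while the related factor SREBP1 drives fatty acid synthesis. Fdps, which encodes the enzyme that makes farnesyl diphosphate, the branch point to sterols and prenylated proteins, was higher on laminin. The gene lies on chromosome 3 from 89093588 to 89101967 (GRCm38.p6, the patch release of mm10). The laminin libraries held 1956, 794, 799, 1210 and 894 normalized counts of Fdps. The poly-L-ornithine libraries held 290, 339, 397, 388 and 276. The lowest laminin library was thus above the highest poly-L-ornithine library. The means were 1131 ± 492 (SD, n = 5) and 338 ± 54.98 (SD, n = 5), and the log2 fold change was 1.66 (95% interval 1.16 to 2.16, adjusted p = 0.000433 from limma). Fdps passed the test under each of the 23 alternatives tried.

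All 22 genes of the cholesterol and fatty acid list had a log2 fold change above 0 on laminin, against 43.7% of all genes tested. The genes tested include some at 0 in all 10 libraries, which count here as not above 0. Their median was 0.88, whereas the median of all genes was 0. Fdps alone passed the test (of all genes 0.0532% passed). An unadjusted p under 0.05 was found for 14 members, against 6.97% of all genes. The groups did not overlap for 6 members (of all genes 0.947% did not overlap, 0.532% higher and 0.416% lower). The summed level of the list was 18859, 10697, 9130, 14792 and 11193 normalized counts on laminin. On poly-L-ornithine it was 7241, 6602, 6336, 7191 and 6600. Laminin replicates 1 and 4 held the highest sums, and the groups did not overlap.

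Sqle, which oxidises squalene, had 727, 498, 284, 520 and 314 normalized counts on laminin and 253, 323, 94.7, 299 and 171 on poly-L-ornithine. The groups overlapped, and the log2 fold change of 1.07 had an adjusted p of 0.194. The members nearest 0 belonged to fatty acid synthesis, namely Fasn at 0.18 and Acaca at 0.04. In naive cultures 18 of the 22 members were above 0 on laminin and the median was 0.39. On Matrigel after IL-1β, compared with the same poly-L-ornithine libraries, 21 members were above 0 and the median was 0.74.

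**Figure D2:**
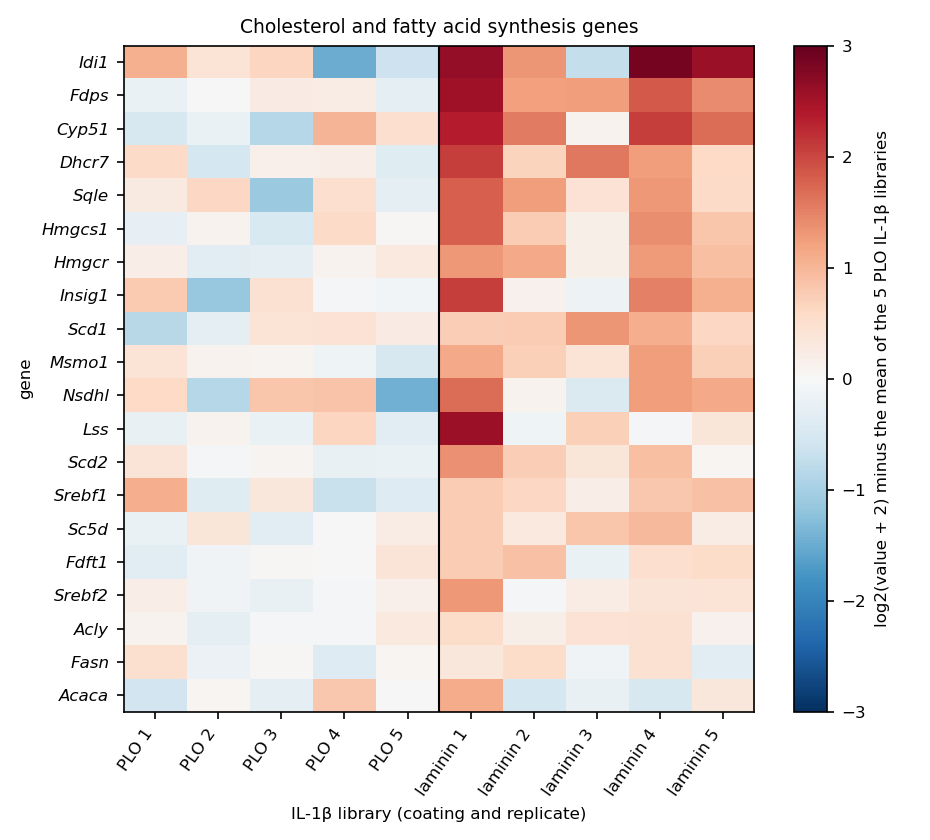
Heat map of 20 of the 22 cholesterol and fatty acid genes (rows) in the 10 IL-1β-treated libraries (columns). Colour gives log2(normalized count + 2) minus the mean of the 5 poly-L-ornithine (PLO) libraries, with red above and blue below. Laminin replicate 1 and replicate 4 are the reddest columns, and Fdps is above 0 in all 5 laminin libraries.

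The promoters of these genes were searched for the core of the sterol regulatory element, CACNCCAC, on both strands of the 250 bases before the start site (RefSeq sequences, GRCm38.p6). Of 22 list genes 14 were in the promoter table, and 2 of them, Hmgcs1 and Insig1, held the motif (14.3%), against 5.29% of all 32851 promoters. The pathway was known to be driven by SREBP factors, so this share does not bear on the coating difference. Hmgcs1 encodes the enzyme that makes the precursor of mevalonate. Its promoter is shown because it carries the motif, in capitals and starting 136 bases before the start site, at chr13:119690101-119690350 on the plus strand.
Hmgcs1: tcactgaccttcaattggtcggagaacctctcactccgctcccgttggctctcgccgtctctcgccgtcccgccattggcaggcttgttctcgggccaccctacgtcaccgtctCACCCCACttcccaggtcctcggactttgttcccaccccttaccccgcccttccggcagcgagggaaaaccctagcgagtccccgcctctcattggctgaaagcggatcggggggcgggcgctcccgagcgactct
Hmgcs1 itself had 1852, 898, 598, 1391 and 946 normalized counts on laminin and 449, 566, 388, 784 and 541 on poly-L-ornithine. The third laminin library lay within the range of the poly-L-ornithine libraries, and the log2 fold change of 0.99 had an adjusted p of 0.504.

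Crim1 shared the smallest adjusted p with Fdps. It encodes a transmembrane protein with cysteine-rich repeats that binds bone morphogenetic proteins (BMPs) and limits their release, and it is also listed among targets of the mechanosensitive co-activator YAP. Normalized counts of Crim1 were 1500, 1259, 1210, 1065 and 1074 on laminin and 455, 462, 517, 773 and 541 on poly-L-ornithine. The groups did not overlap. The means were 1222 ± 177 (SD, n = 5) and 550 ± 130 (SD, n = 5), with a log2 fold change of 1.17 (95% interval 0.80 to 1.53, adjusted p = 0.000433 from limma), and Crim1 passed under all 23 alternatives. The gene lies on chromosome 17 from 78200233 to 78376592 and overlaps Fez2, so reads of the pair could be exchanged if strand was not used in counting.

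The other genes of the BMP pathway did not pass the test. BMPs are secreted ligands that act through SMAD1 and SMAD5 and raise the Id genes, which encode inhibitors of differentiation. Of 29 genes tested in the BMP and Id list, Crim1 was the only call, against 0.0532% of all genes. In this list 18 were above 0 and the median was 0.24. Among ligands, Bmp4 had 486, 621, 295, 402 and 381 normalized counts on laminin and 254, 239, 215, 109 and 274 on poly-L-ornithine. These groups did not overlap, and the log2 fold change of 1.02 had an adjusted p of 0.346. Among targets, Id1 had a log2 fold change of 1.12 (adjusted p = 0.346). The antagonist Chrd had 1.55 (adjusted p = 0.568).

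A further group of called genes belongs to the cytoskeleton. Cnn2, which encodes the actin-binding protein calponin 2 and lies on chromosome 10 from 79988600 to 79995400, was higher on laminin. Its normalized counts were 1917, 1960, 1281, 1683 and 2316 on laminin and 780, 1267, 711, 1074 and 898 on poly-L-ornithine. The groups touched closely, at 1281 and 1267, without overlap. The means were 1831 ± 382 (SD, n = 5) and 946 ± 226 (SD, n = 5), and the log2 fold change was 0.96 (95% interval 0.60 to 1.31, adjusted p = 0.00544 from limma). Without laminin replicate 5 the adjusted p was 0.0534, and without poly-L-ornithine replicate 3 it was 0.0522. It was also lost by limma-voom, a fit that weights estimated reads, and with a plain variance prior.

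Alpha-tubulin, the partner of beta-tubulin in microtubules, was higher on laminin by a smaller factor at a very high level. Tuba1a had 21870, 20313, 15672, 19823 and 17668 normalized counts on laminin and 15290, 13084, 11730, 15037 and 11941 on poly-L-ornithine. Every laminin library lay above every poly-L-ornithine library, and the log2 fold change was 0.51 (95% interval 0.32 to 0.70, adjusted p = 0.00804 from limma). Tuba1b, named after its values were seen, had 8796 to 12369 on laminin and 5939 to 8850 on poly-L-ornithine, so the ranges met at their edges, with a log2 fold change of 0.54 (95% interval 0.33 to 0.75, adjusted p = 0.00804). The pair sits side by side on chromosome 15 (Tuba1a from 98949847 to 98953501, Tuba1b from 98931429 to 98934390) and is nearly identical in sequence, so how reads were split between them is uncertain. Tuba1b also overlaps Gm41396. Tuba1a was lost without laminin replicate 1 (adjusted p = 0.0661) or poly-L-ornithine replicates 3 or 5 (0.0755 and 0.0551), and also after quantile normalization (0.239), with a plain variance prior (0.447) and by limma-voom (0.364). Tuba1b was lost without laminin replicates 1 or 4 (adjusted p = 0.0930 and 0.0531) or poly-L-ornithine replicates 3 or 5 (0.0872 and 0.0618), and also with the 15 IL-1β-treated libraries (0.0538), with a plain variance prior (0.405) and by limma-voom (0.102). Of 11 alpha- and beta-tubulin genes, a list formed after these calls, 8 were above 0 with a median of 0.26, and Tubb5 had a log2 fold change of 0.39 (adjusted p = 0.184).

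Cnn2 and Crim1 were the only calls among 23 targets and partners of SRF and YAP, 2 regulators that respond to actin tension. Of all genes tested, 0.0532% were called. The list was chosen with earlier results of these data known, and Crim1 is also counted in the BMP list. These 2 calls are thus no independent evidence for the list. SRF binds a motif called the CArG box, and YAP acts through TEAD factors, which bind CATTCC. In this list 16 members were above 0 and the median log2 fold change was 0.39. Amotl2, a YAP target that restrains YAP in turn, had a log2 fold change of 0.94 (adjusted p = 0.163), and the secreted matrix protein Ccn1 had 0.84 (adjusted p = 0.291). Ccn2, often called together with Ccn1, was at -0.43, and Fosl1 was at -2.55, neither past the test. The list of 37 focal adhesion and actin genes held no call, with 23 members above 0 and a median of 0.08. Among these, 11 had an unadjusted p under 0.05 and a log2 fold change above 0, and none had one below. Of all genes tested, 3.54% had such a p with a value above 0 and 3.43% with one below. Actn1, which cross-links actin at adhesions, had a log2 fold change of 0.48 (adjusted p = 0.184), Tpm4 0.42 (0.262) and Dlc1, a brake on the GTPase RhoA, 0.66 (0.178). Cavin1 and Cavin2, coat proteins of caveolae named after their values were seen, had 0.41 (adjusted p = 0.0573) and 1.33 (0.178).

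Promoters of Cnn2 and Crim1 are shown because each carries one of these motifs, in capitals, in the 250 bases before its start site. For Cnn2 (chr10:79988350-79988599, plus strand) the CArG box starts 56 bases before the start site. For Crim1 (chr17:78199998-78200247, plus strand) the TEAD motif is on the minus strand, so that its complement GGAATG is read here, 79 bases before the start site.
Cnn2: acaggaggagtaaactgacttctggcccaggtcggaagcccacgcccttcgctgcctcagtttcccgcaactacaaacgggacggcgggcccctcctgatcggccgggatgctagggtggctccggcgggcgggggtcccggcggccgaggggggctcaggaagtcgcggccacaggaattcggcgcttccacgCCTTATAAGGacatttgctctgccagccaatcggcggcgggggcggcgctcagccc
Crim1: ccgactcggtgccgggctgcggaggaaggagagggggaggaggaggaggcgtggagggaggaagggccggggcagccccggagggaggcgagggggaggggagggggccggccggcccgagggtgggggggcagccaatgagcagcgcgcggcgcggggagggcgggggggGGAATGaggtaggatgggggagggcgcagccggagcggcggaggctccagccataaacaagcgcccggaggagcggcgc
A CArG box was present in 1.47% of all promoters searched, and in 4 of 17 promoters of the SRF and YAP list that were in the table (Srf, Vcl, Cnn2 and Myl9). CATTCC or its complement was present in 12.6% of all promoters and in 8 of those 17. The list was made of known targets and partners of these factors, so its shares do not bear on the coating difference. Of the 11 called genes 9 were in the table, and besides Cnn2 and Crim1 none of them held a CArG box or CATTCC. Each motif was thus in 1 of 9 (11.1%), against 1.47% of all promoters for the CArG box and 12.6% for CATTCC. A match describes these letters and does not show that a factor binds there.

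The 14 smooth muscle markers summed to 19464, 12626, 5528, 13354 and 12383 normalized counts on laminin. On poly-L-ornithine they summed to 3944, 5976, 3358, 6801 and 6144. Laminin replicate 3 lay within the range of poly-L-ornithine, and the other 4 laminin libraries were above it. Of 13 markers tested none passed, 11 were above 0, and the median was 1.08. Under other settings Tpm2 passed with the 10 libraries alone, and Tpm2 and Lmod1 with the serial-number block. Lmod1 also passed without laminin replicate 3, and Tpm2 and Acta2 with the replicate number as a block in the 10 libraries. Acta2, the smooth muscle actin, made up most of the sum, with 11218, 7768, 3423, 7756 and 7839 on laminin and 2377, 3869, 2120, 4247 and 3478 on poly-L-ornithine, a log2 fold change of 1.19 (adjusted p = 0.533). The tropomyosin Tpm2 had a log2 fold change of 1.57 (adjusted p = 0.263). Myh11, the myosin that defines mature smooth muscle, was at only 0 to 58.6 on laminin and 0 to 1.86 on poly-L-ornithine. The part of smooth muscle content in the differences of Cnn2, Crim1 and the tubulins was not tested. In naive cultures the same list had a median of 0.89, and for Matrigel after IL-1β it was 1.32.

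Adm, which encodes the vasoactive and anti-inflammatory peptide adrenomedullin (chromosome 7, 110627657 to 110629820), was higher on laminin. Normalized counts were 2029, 2282, 3011, 1618 and 1229 on laminin and 949, 957, 490, 950 and 500 on poly-L-ornithine. There was no overlap between the groups. Means of 2034 ± 678 (SD, n = 5) and 769 ± 250 (SD, n = 5) gave a log2 fold change of 1.40 (95% interval 0.97 to 1.83, adjusted p = 0.000733 from limma). The call was lost only with the 15 IL-1β-treated libraries in the fit (adjusted p = 0.0897). Adm was the only call among 18 neuropeptide and secretory granule genes (5 above 0, median -0.26) and among 22 genes of glycolysis and hypoxia (9 above 0, median -0.03). The share of calls over all genes tested was 0.0532%.

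Focad and Hacd4 were called in opposite directions, and the pair shares a locus. Focad encodes focadhesin, a focal adhesion protein, and Hacd4 an enzyme of very long chain fatty acid synthesis. Focad was at 160, 96.1, 201, 52.6 and 188 normalized counts on poly-L-ornithine, and was listed at 0.00422 or less in every laminin library, with an adjusted p of 0.00544. Hacd4 was at 683, 555, 261, 343 and 343 on laminin and at 287, 58.2, 63.1, 250 and 181 on poly-L-ornithine. Its ranges overlapped slightly and its log2 fold change was 1.57 (95% interval 0.92 to 2.21, adjusted p = 0.0366 from limma). Both genes lie on chromosome 4 on opposite strands, Focad from 88094620 to 88411011 and Hacd4 from 88407687 to 88438936, so that their 3′ ends overlap by 3325 bases (88407687 to 88411011). Reads of a 3′ library fall in that overlap, and whether counting used strand is not stated in the study's methods or the labels. The sum of the pair was 261 to 683 on laminin and 154 to 448 on poly-L-ornithine, which overlap. Whether reads were exchanged within the pair was not tested and the sum cannot show it, so both calls remain uncertain. Hacd4 was lost in 6 of the 10 fits that left out a library, without laminin replicate 1, 2, 4 or 5 or poly-L-ornithine replicate 2 or 3, with an adjusted p up to 0.181. It was also lost with the 10 libraries alone (0.0824), the 15 IL-1β-treated libraries (0.200), a mean of at least 15 (0.0510), a plain variance prior (0.177) and limma-voom (0.154).

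**Figure D3:**
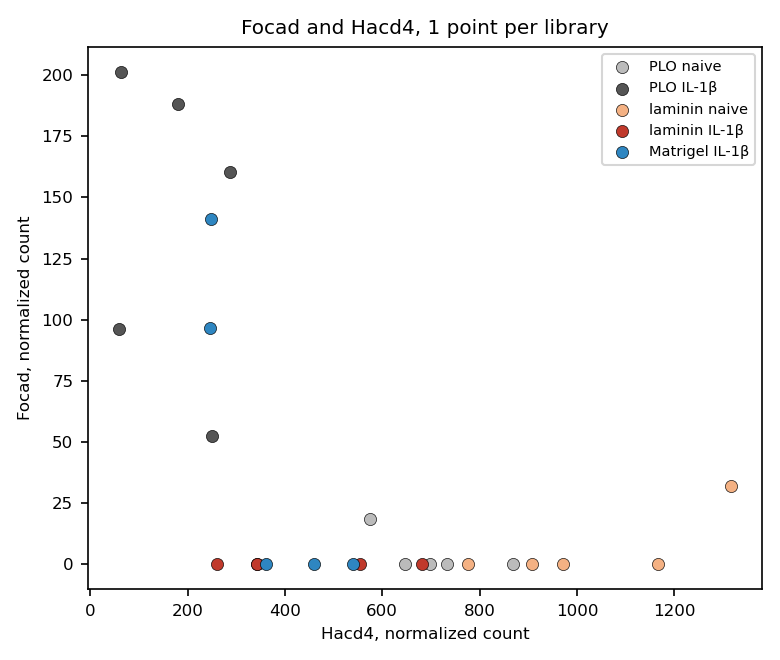
Normalized counts of Focad (y axis) against Hacd4 (x axis), 1 point per library, in 5 culture groups. All 5 poly-L-ornithine (PLO) IL-1β libraries have Focad above 50, while the 5 laminin IL-1β libraries have it at 0 or nearly so, with Hacd4 from 261 to 683.

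The other calls were less stable and are named although they fall outside the rule for naming genes, having been chosen after their values were seen. Slc24a3, a sodium, potassium and calcium exchanger, had 302, 375, 195, 98.1 and 265 normalized counts on laminin and 98.7, 91.3, 59.4, 77.5 and 80.7 on poly-L-ornithine, with a log2 fold change of 1.46 (95% interval 0.83 to 2.10, adjusted p = 0.0491 from limma). Only laminin replicate 4 lay within the poly-L-ornithine range. Ctsk, the collagen-degrading protease cathepsin K, was lower on laminin, at 340, 247, 638, 343 and 374 against 582, 1023, 1116, 865 and 1457 (log2 fold change -1.38, 95% interval -1.98 to -0.78, adjusted p = 0.0494). Laminin replicate 3 was the highest of its group, above the lowest poly-L-ornithine library. Slc24a3 passed in 6 and Ctsk in 7 of 23 alternatives. Slc24a3 was lost without laminin replicates 1, 2 or 5 or poly-L-ornithine replicates 1, 3, 4 or 5, with an adjusted p up to 0.217. Ctsk was lost without laminin replicates 1, 2, 4 or 5 or poly-L-ornithine replicates 2, 3, 4 or 5, with an adjusted p up to 0.179. Tbx5, a transcription factor best known from the heart, was at 37.0, 19.6, 29.7, 8.06 and 16.3 on poly-L-ornithine and listed at 0, or below any readable level, in all laminin libraries (adjusted p = 0.00319). It also had 4 of 5 naive poly-L-ornithine libraries, all naive laminin libraries and all Matrigel IL-1β libraries at 0. Tbx5 did not pass with the 10 libraries alone (adjusted p = 0.332 from limma) or the 15 IL-1β-treated libraries (0.200). Nor did it pass with the replicate number as a block in the 10 libraries (0.314).

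The coating difference after IL-1β was set against the same difference in naive cultures. No gene passed this interaction test in limma (0 of 20687, 0%), 789 genes (3.81%) had an unadjusted p under 0.05, and limma-voom called 1 and the serial-number block 1. Each of the 11 genes above had an adjusted p of 0.969 for the interaction. Nor did a gene pass between naive laminin and naive poly-L-ornithine in limma (0 of 20687, 0%, with 942 or 4.55% at an unadjusted p under 0.05). The study, using DESeq2, did report genes that differed between naive coatings, with Adm among those higher on Matrigel and laminin. Here Adm had 0.80 in naive cultures (adjusted p = 0.802 from limma). It is thus not shown that the genes above depended on IL-1β for their difference.

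The response to IL-1β was measured against the naive cultures of each coating, so these comparisons share libraries with the coating comparison. Crim1 had a mean of 1099 in naive and 550 in treated cultures on poly-L-ornithine, and fell by 0.98 on the log2 scale (adjusted p = 0.000348 from limma). On laminin its means were 1445 and 1222, with a log2 fold change of -0.25 (adjusted p = 0.695). For Adm the means on poly-L-ornithine were 1502 and 769 (log2 fold change -1.02, adjusted p = 0.00318) and 2614 and 2034 on laminin (-0.42, 0.504). For Cnn2 the log2 fold change was -0.83 (adjusted p = 0.00215) on poly-L-ornithine and -0.40 (0.357) on laminin. Tuba1a fell on both coatings, by 0.87 on the log2 scale on poly-L-ornithine (adjusted p = 1.05e-08) and by 0.46 on laminin (0.00229). Fdps had -0.77 (adjusted p = 0.111) and 0.15 (0.95). Ctsk rose on poly-L-ornithine by a log2 fold change of 1.25 (adjusted p = 0.00904) and had 0.49 on laminin (0.625). Slc24a3 had -2.37 on poly-L-ornithine (adjusted p = 4.55e-07) and -1.67 on laminin (0.000467), and Hacd4 had -2.33 (3.76e-06) and -1.30 (0.0167). Tuba1b had -0.64 (adjusted p = 2.95e-05) and -0.29 (0.193). On poly-L-ornithine Focad had 5.32 (adjusted p = 0.00175) and Tbx5 2.92 (0.00176), and neither was called on laminin. In all, 484 genes were called after IL-1β on poly-L-ornithine (2.34%), 249 higher (1.20%) and 235 lower (1.14%), and 389 on laminin (1.88%), 237 higher (1.15%) and 152 lower (0.735%).

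Matrigel after IL-1β was compared with the same 5 poly-L-ornithine libraries, so its values are not independent of those above. It had 28 calls (0.135%), 20 higher (0.0967%) and 8 lower (0.0387%). For Fdps the log2 fold change on Matrigel was 1.38 (adjusted p = 0.00596), and it was 1.22 for Crim1 (0.000150), 1.65 for Adm (7.23e-05), 0.92 for Cnn2 (0.00908) and 0.52 for Tuba1a (0.00655). For Ctsk it was -1.51 (adjusted p = 0.0125). Focad was near 0 in 3 Matrigel libraries and at most 141 in the others (adjusted p = 0.257). Laminin and Matrigel differed after IL-1β in no gene by limma (0 of 20687, 0%, with 821 or 3.97% at an unadjusted p under 0.05).

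The text of the study names 15 genes for coating-dependent expression after IL-1β, on these same libraries. The study's calls came from DESeq2 on differences between coatings, Matrigel included, whereas limma compared only laminin with poly-L-ornithine here. The tests thus differ in method and in the cultures compared. None of the 15 passed the test here, and 8 had an unadjusted p under 0.05, 7 higher and 1 lower. Of all genes tested, 6.97% had such a p. With the serial-number block 5 passed, all higher on laminin (Bmp4, Tmem176a, Il6st, Ifitm1 and Ifitm3). The list holds genes placed on either coating and was chosen on these samples, so its counts are no independent evidence of a direction. Il6st, the shared receptor subunit gp130 of the IL-6 family, had 2345 to 2932 normalized counts on laminin and 1326 to 2311 on poly-L-ornithine. The groups did not overlap, and the log2 fold change was 0.54 (adjusted p = 0.195). Slco2a1, a prostaglandin transporter, had 73.6 to 201 and 13.0 to 64.5, also without overlap (1.92, adjusted p = 0.194). Dock8, a regulator of leukocyte migration, was listed at 0 in every laminin library (adjusted p = 0.568).

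**Figure D4:**
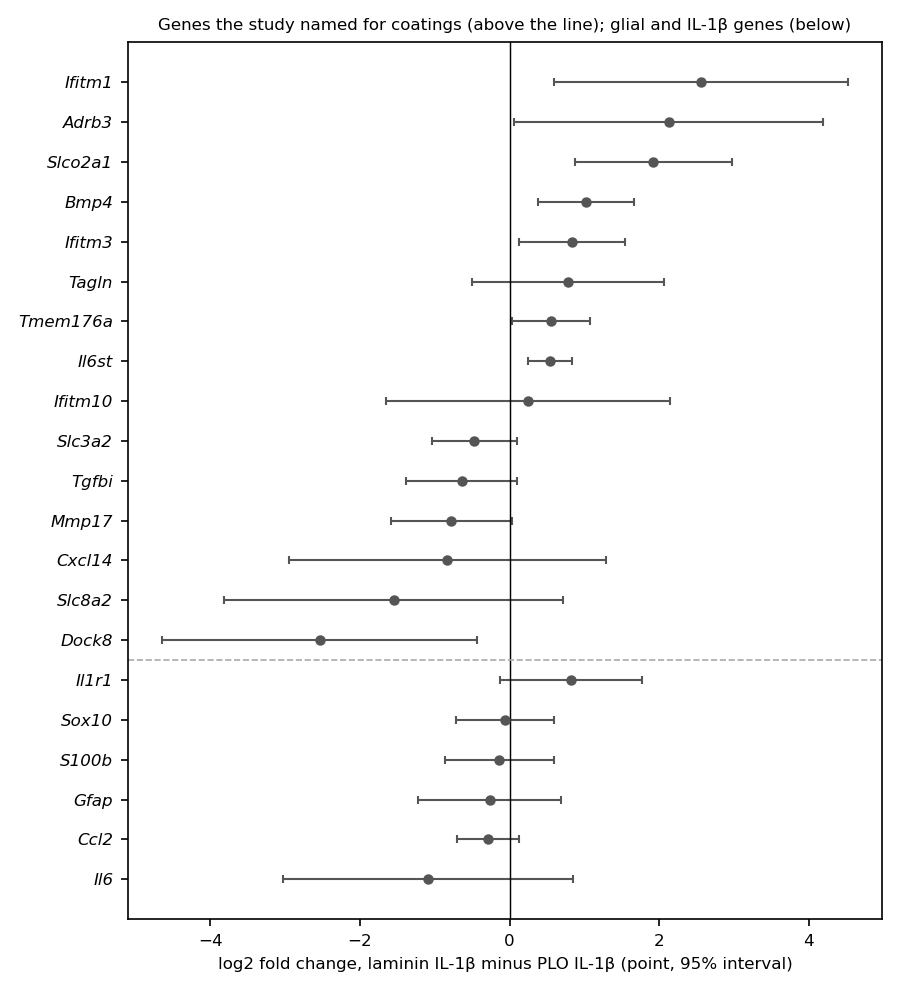
Log2 fold change of laminin IL-1β minus poly-L-ornithine (PLO) IL-1β (x axis, point with 95% interval) for the 15 genes named in the study's text (above the dashed line) and for 6 glial and IL-1β-responsive genes (below it). None has an adjusted p under 0.05. The interval of Il6st runs from 0.24 to 0.83 and that of Slc8a2 from -3.82 to 0.71.

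Among IL-1β-responsive genes, the abundance differed widely and no coating difference passed. Ccl2, the monocyte chemoattractant, had 9896, 6459, 7568, 8182 and 7753 normalized counts on laminin and 7983, 8806, 13691, 7849 and 11075 on poly-L-ornithine. These ranges overlapped, and the log2 fold change was -0.29 (95% interval -0.70 to 0.12, adjusted p = 0.797 from limma). Its naive means were 138 and 216, far below the treated libraries. Il6 was low and scattered, from 2.37 to 231 on laminin and from 43.2 to 367 on poly-L-ornithine, with a log2 fold change of -1.09 (95% interval -3.03 to 0.84, adjusted p = 0.861). Il1r1, the receptor of IL-1β, had 184 to 435 and 76.7 to 351 (0.82, 95% interval -0.13 to 1.77, adjusted p = 0.794). These intervals include differences of more than 1 on the log2 scale for Il6 and Il1r1, so similar levels are not shown.

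Among 21 chemokines and colony-stimulating factors 10 were above 0 and the median was -0.15. Csf1, the growth factor of macrophages, had a log2 fold change of -0.49 (adjusted p = 0.548), and Cxcl12, a chemokine of stem and immune cells, had 1.45 (adjusted p = 0.560). Rarres2, which encodes the chemoattractant chemerin, had 459 to 913 on laminin and 133 to 326 on poly-L-ornithine, without overlap (1.53, adjusted p = 0.292). It passed with the 10 libraries alone, the 15 IL-1β-treated libraries, the replicate number as a block in the 10 libraries, and the serial-number block. Rarres2 was listed after the study's results on these libraries were known, so standing out in its list is no independent evidence. Of 27 IL-1 and IL-6 family genes 19 were above 0, with a median of 0.17. Lif, a cytokine of that family, had 19.8 to 41.8 on laminin and 56.4 to 238 on poly-L-ornithine, without overlap, and a log2 fold change of -1.71 (adjusted p = 0.671). No member of either list passed.

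Interferon-stimulated genes, which restrict viruses, lay higher on laminin as a list without a single call. Of 30 tested 23 were above 0 and the median log2 fold change was 0.59. Ifitm3, a membrane protein that blocks viral entry, had 32319, 12247, 15354, 32052 and 16617 normalized counts on laminin and 6793, 13607, 12861, 10611 and 14536 on poly-L-ornithine. Laminin replicates 1 and 4 stood above the rest, and the log2 fold change was 0.83 (adjusted p = 0.591). Ifitm1 showed the same 2 libraries, at 4911 and 2756 against 264 to 600 in the other laminin libraries (log2 fold change 2.56, adjusted p = 0.542). Ifitm genes are close paralogs in a cluster, and reads could be split among them. For 19 complement and acute phase genes the median was 0.62 and 18 were above 0, none of them past the test. C1ra, a protease of the complement cascade, had 7985 and 4834 in laminin replicates 1 and 4 and 1007 to 3081 on poly-L-ornithine (0.99, adjusted p = 0.794).

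The same 2 laminin libraries also held the highest sums of fibroblast markers on laminin. The 14 fibroblast markers summed to 100047, 26472, 28991, 54702 and 37122 normalized counts on laminin and 21542, 34815, 53629, 34688 and 66115 on poly-L-ornithine. The groups overlapped, the median log2 fold change of the markers was 0.28, 10 of 14 were above 0 and none passed. The part of fibroblast content in the interferon, complement and cholesterol values was not tested.

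**Figure D5:**
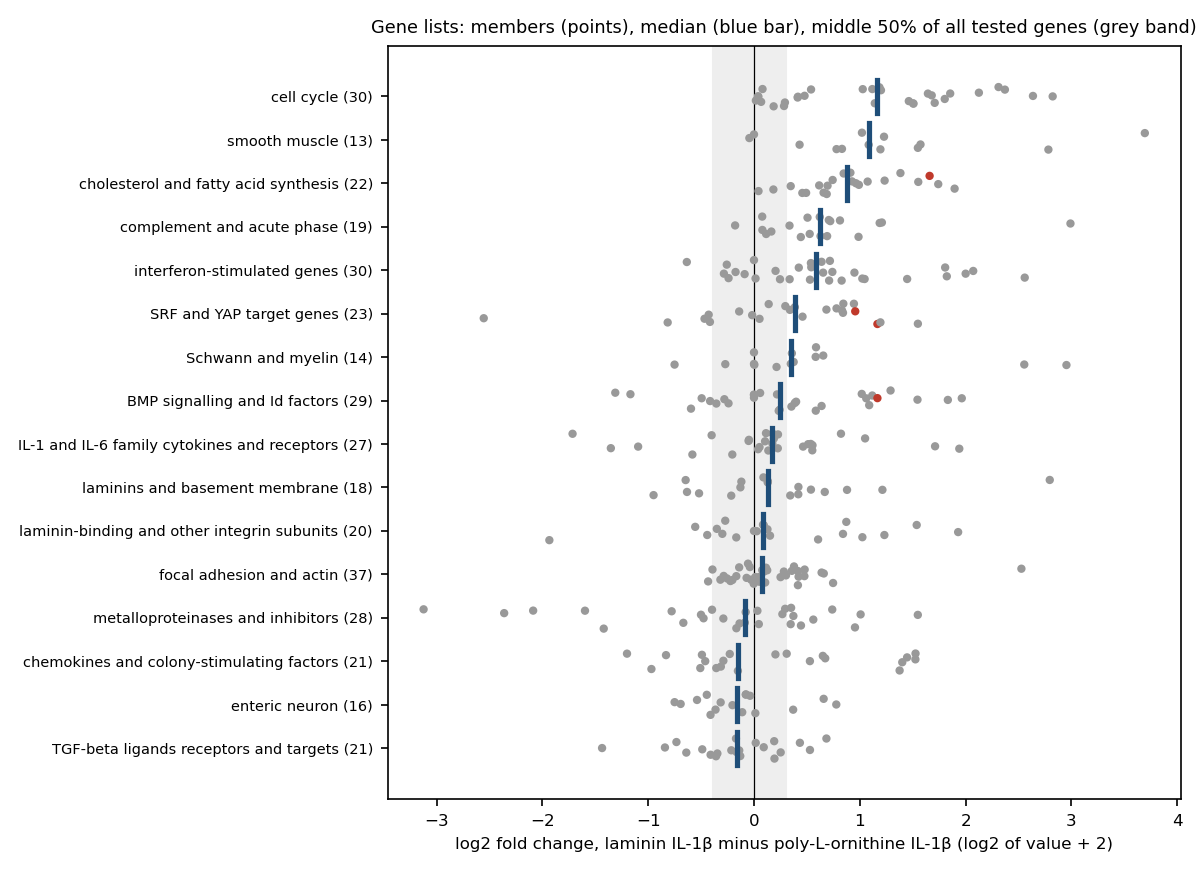
Log2 fold change of laminin IL-1β minus poly-L-ornithine IL-1β (x axis) for the tested members of 16 gene lists (rows, number of members in brackets). Grey points did not pass and red points passed the test, blue bars are medians and the grey band spans the middle 50% of all genes tested. The cell cycle (1.16), smooth muscle (1.08) and cholesterol (0.88) lists have the highest medians.

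Cell cycle genes had the highest median of the lists described. All 30 members were above 0 and the median was 1.16, yet none passed. An unadjusted p under 0.05 was found for 10, against 6.97% of all genes, and many sat at low counts where values scatter. Cdk1, the kinase that drives entry into mitosis, had 290, 161, 108, 193 and 86.5 normalized counts on laminin and 114, 22.8, 43.6, 62.4 and 29.8 on poly-L-ornithine. The ranges overlapped in a single poly-L-ornithine library, and the log2 fold change was 1.68 (adjusted p = 0.215). Mcm3, part of the helicase that opens DNA for replication, had 141 to 205 and 38.8 to 132, without overlap (1.503, adjusted p = 0.266). The abundant G1 cyclins, which made up most of the list's summed level, had smaller values, with Ccnd2 at 0.42 and Ccnd1 at 0.48. That summed level ran from 14911 to 16540 on laminin and from 10345 to 12615 on poly-L-ornithine, without overlap. The lowest laminin sum, 14911, was in replicate 3. Over all members the median deviation from the poly-L-ornithine mean was 1.67, 1.56, 1.37 and 1.03 in laminin replicates 1, 2, 4 and 5, and -0.16 in replicate 3. Smooth muscle markers had median deviations of 1.99, 1.47, 1.32 and 1.34 in those 4 libraries and -0.42 in replicate 3, and their part in the cell cycle values was not tested. In naive cultures the median was 0.35 and 23 members were above 0. On Matrigel after IL-1β, compared with the same poly-L-ornithine libraries, the median was 1.05 and 27 members were above 0.

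No listed gene of the laminin family or of its receptors was called, where 0.0532% of all genes were. At that share, lists of this size would seldom hold a call, so the lack of one says little. Of 20 integrin subunits and other laminin receptors 12 were above 0, with a median of 0.09 and no call. Bcam, a laminin receptor of the immunoglobulin family, had 82.5 to 151 normalized counts on laminin and 45.8 to 72.5 on poly-L-ornithine, without overlap (log2 fold change 1.02, adjusted p = 0.679). Itgb5, which pairs with the αv subunit to bind vitronectin, had -0.56 (adjusted p = 0.775), and Itgb1, the beta subunit of the main laminin-binding integrins, had 0.09 (adjusted p = 0.938). Of 18 laminin and basement membrane genes 11 were above 0 and the median was 0.13. An unadjusted p under 0.05 in limma was found for 4 of them and for 2 of the receptor list, all higher. Of all genes, 3.54% were higher at such a p. Vwa1, a matrix protein of the endoneurium and of basement membranes, had 205 to 546 on laminin and 99.9 to 199 on poly-L-ornithine, without overlap (1.21, adjusted p = 0.195). Vwa1 was listed after the study's results on these libraries were known, so standing out in its list is no independent evidence. Lamb2, the laminin β2 chain, had 0.42 (adjusted p = 0.591). The 28 metalloproteinases and inhibitors had a median of -0.08 with 13 above 0, and Mmp2, a gelatinase, had -0.40 (adjusted p = 0.568).

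Transforming growth factor β genes had a median of -0.16, with 8 of 21 above 0 and no call. Tgfb1, its best known ligand, had 135, 104, 333, 187 and 82.3 normalized counts on laminin and 314, 447, 628, 328 and 380 on poly-L-ornithine. Laminin replicate 3 alone reached into the poly-L-ornithine range, and the log2 fold change was -1.44 (95% interval -2.23 to -0.64, adjusted p = 0.198). Tgfb1 passed with the 10 libraries alone, the replicate number as a block in the 10 libraries, and the serial-number block.

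Glial identity genes did not pass the test, and their intervals were wide. Sox10 had a log2 fold change of -0.06 (95% interval -0.71 to 0.59), S100b, a glial calcium-binding protein, -0.14 (-0.87 to 0.59), and Gfap, the intermediate filament of reactive glia, -0.27 (-1.22 to 0.69), with an adjusted p of 0.998 or more. Gfap was at 218 to 330 in 4 laminin libraries and at 26.5 in replicate 3, without which its log2 fold change was 0.37. Over the 14 enteric glia markers 6 were above 0 and the median was -0.05. The Schwann cell and myelin list had a median of 0.35, with 10 of 14 above 0, among them Pmp22 at 0.65 (adjusted p = 0.271). Scn7a, a sodium channel of glia in that list, had 336, 684, 209, 298 and 467 normalized counts on laminin and 71.4, 28.3, 39.0, 59.4 and 42.2 on poly-L-ornithine. The groups were far apart, yet the log2 fold change of 2.95 (95% interval 1.51 to 4.39) had an adjusted p of 0.178, with naive laminin libraries spread from 81.2 to 1690. Scn7a passed with the 10 libraries alone, the 15 IL-1β-treated libraries, the replicate number as a block in the 10 libraries, and the serial-number block. Its list was written after the study's results on these libraries were known, so standing out in it is no independent evidence. Of 16 neuronal markers 4 were above 0, the median was -0.16, and their sums ran from 7273 to 11485 on laminin and from 9060 to 13699 on poly-L-ornithine. Uchl1, an abundant neuronal hydrolase, had -0.45 (adjusted p = 0.609). No marker of glia, Schwann cells, neurons, macrophages, endothelium or interstitial cells of Cajal passed the test.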

How the data were processed

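RNA of 35 samples was sequenced by the authors as QuantSeq 3′ libraries. Per the study's methods and processing notes, adapters and bases were trimmed (cutadapt), reads were aligned to mm10 with STAR in Partek Flow and quantified per gene. Neither annotation release nor use of strand is stated in the sources used here. The deposited signal is a matrix of 22180 genes by 35 libraries of normalized counts, in which the authors scaled each library's estimated counts by its own size factor. Between 86.2% and 89.4% of a library's low values were whole multiples of its step (within 0.02 steps), too few to recover whole reads, so no count test was run, and depths are estimates.

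The 30 culture libraries were fitted as 6 groups, after taking log2 of the normalized count plus a pseudocount of 2, with limma 3.58.1 (R 4.3.3), a variance trend and robust estimation. Genes with a maximum of 15 or less were left out, as in the study's noise filter, which kept 20687. Adjustment was by the Benjamini-Hochberg method across the genes kept, and an adjusted p under 0.05 was a call. Fold changes on this scale understate low genes. The exact zeros and the very small values of the matrix may be failed estimates, which was not tested. Tbp, a gene every cell uses, was at 0 in 1 library, which was not among the 10 compared. The other housekeeping genes examined were at 0 in no library. Log2 fold changes are laminin minus poly-L-ornithine. Alternatives were pseudocounts of 1 and 8, other filters, scalings and variance priors, fits on fewer libraries, limma-voom, blocks, and each library left out.

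Named genes are the 15 of the study's text, up to 10 per direction past the test without overlap and with a mean of at least 50, called members of the lists, up to 4 members with the smallest p of each described list, and 7 markers. Other named genes were chosen after their values were seen. The comparison, members and lists were chosen with earlier results of these data known, so counts and medians within a list are no independent evidence. Lists are described by counts and medians, with no set test. For named symbols, 19145 of 22180 matched RefSeq (GRCm38.p6). Promoters of Fdps and Sqle were not analysed here. Some genes that this rule names are not reported here, though they stay in the counts and medians. Nothing in the labels says which cultures shared animals or preparations. Python 3.11.15, numpy 2.4.6, scipy 1.17.1, pandas 2.3.3 and matplotlib 3.10.9 were used.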

Additional observations from a re-analysis of the deposited data

Results flagged for a closer look

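In 16 of 185 groups of 5 libraries examined for the named genes, 1 library stood apart from the others by Dixon's criterion (a gap over 0.710 of the group's range), where chance flags about 1 in 20. On laminin these were Tbx5 in replicate 5 (3.18e-08, the others at 0), Cavin1 in replicate 2 (7996), Tubb5 in replicate 3 (8340), Adam8 in replicate 2 (19.0), Mmp2 in replicate 1 (3824), Sparc in replicate 1 (88740 normalized counts, the next at 55991) and Slc8a2 in replicate 5 (41.1). On poly-L-ornithine these were Crim1 in replicate 4 (773, the next at 541), Lmod1 in replicate 4 (21.1), Mcm3 in replicate 4 (132), Myh11 in replicate 3 (1.86), C1qtnf1 in replicate 5 (33.6), Bst2 in replicate 2 (810, the next at 345), Mmp16 in replicate 2 (74.99), Itga2 in replicate 3 (121) and Cxcl14 in replicate 1 (111).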

How the results depend on the processing

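Fdps and Crim1 passed the test under all 23 alternatives. The count of 11 calls was 26 with the 10 libraries alone, 7 with a mean of at least 15, 7 after quantile normalization, 6 with no trend and no robust estimation, and 18 by limma-voom, and ran from 5 to 19 with each library left out. Titles give the groups the same replicate numbers, but same-numbered libraries did not deviate together (mean r -0.0157, from -0.0287 to 0.00982), so the numbers are not taken as pairs. With the replicate number as a block the count was 10 over 30 libraries and 50 over the 10. Among the 10 libraries, those of the same serial-number rank had a mean r of 0.0462 (0.0225 to 0.0675). A block on that rank over the 30 libraries gave 105. The interaction gave 0 calls with each library left out, 1 by limma-voom and 1 with the serial-number block. Of 83 named genes that did not pass, 27 passed under at least 1 alternative, 15 of them only under the serial-number block. Focad was lost after quantile normalization (adjusted p = 0.0543).

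Log2 fold changes of 4 genes changed sign when a library was left out. Without a laminin library, Gfap was 0.37 (replicate 3), S100b 0.13 (replicate 1) and 0.0096 (replicate 4), and Sox10 0.010 (replicate 3) and 0.063 (replicate 5). Without a poly-L-ornithine library, Cxcl14 was 0.023 (replicate 1), S100b 0.025 (replicate 4), and Sox10 0.080 (replicate 1) and 0.012 (replicate 3). With each library left out in turn, the lowest values of these genes were -1.43 for Cxcl14, -0.51 for Gfap, -0.45 for S100b and -0.24 for Sox10. Of 368 list medians recomputed over 16 lists, 9 took the opposite sign, in 3 lists (chemokines, metalloproteinases and integrins). The number of libraries and the scatter of low counts limit what differences could be seen.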
